A study of Mus musculus with 73 samples.

Results

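The H19 and Igf2 locus is an imprinted stretch of mouse chromosome 7, and its rows in the allele-specific expression table of this series are H19, Igf2 and Igf2os. These 3 genes were taken by name from the 30546 genes of the table. RNA was sequenced from 2 tissues dissected from individual embryos at embryonic day 6.5, the epiblast and the extraembryonic ectoderm (ExE), with reads assigned to the BDF1 or the CAST parent by polymorphisms that distinguish the strains. Crosses are written with the mother first. The controls were 7 wild-type BDF1xCAST embryos and 4 wild-type CASTxBDF1 embryos, each with 1 epiblast and 1 ExE library. The knockouts were made only in BDF1xCAST embryos, by injecting Cas9 mRNA with 3 to 4 guide RNAs per gene into zygotes. They were Dnmt1 (3 epiblast and 3 ExE libraries), G9a-Glp, the double disruption of Ehmt2 and Ehmt1 (6 and 8), Rnf2 (6 and 5) and Eed (9 and 10). Zygotic injection can leave an embryo a mosaic of edited cells. BDF1xCAST embryos came from sperm injection into the oocyte and were transferred to CD-1 females, per the labels' protocols, whereas CASTxBDF1 embryos came from natural mating, so that cross and mode of conception cannot be told apart.

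H19 is a long noncoding RNA that is transcribed from the maternal chromosome and is the host of the microRNA miR-675. Igf2, insulin-like growth factor 2, is a fetal growth factor that signals through Igf1r and Insr, is cleared by Igf2r and is transcribed mainly from the paternal chromosome. In the textbook account, a control region between H19 and Igf2 is methylated on the paternal chromosome, CTCF binds the unmethylated maternal copy, and that binding keeps Igf2 from enhancers downstream of H19. Dnmt1 maintains DNA methylation through replication, G9a and Glp methylate histone H3 at lysine 9, Rnf2 is the ubiquitin ligase of Polycomb repressive complex 1, and Eed is a core subunit of Polycomb repressive complex 2. H19 is known for its abundance in extraembryonic lineages.

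On the mm10 build the locus reads leftward, on the minus strand of chromosome 7 for H19 and Igf2. H19 covered chr7:142575530-142578146 (2617 bases) and Igf2 chr7:142650768-142666816, with 72.6 kb between them. Igf2os, a noncoding gene named as the opposite strand of Igf2, covered chr7:142659693-142670356. It shared 7124 bases with Igf2, which is 66.8% of its own length. The kit used does not mark strand, so reads in the shared stretch cannot be divided between Igf2 and Igf2os.

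The mature microRNAs of the locus are shown because each pair lies inside a member, miR-675 within H19 and miR-483 within Igf2, so that their host RNAs are what was counted. Sequences and positions are from RefSeq on GRCm38.p6, the build otherwise called mm10, and both hairpins were matched. Capitals mark the seed, bases 2 to 8.
miR-675-5p, chr7:142577112-142577133, minus strand: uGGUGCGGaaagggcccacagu
miR-675-3p, chr7:142577078-142577099, minus strand: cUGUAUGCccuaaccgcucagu
miR-483-5p, chr7:142654968-142654989, minus strand: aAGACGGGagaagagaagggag
miR-483-3p, chr7:142654932-142654952, minus strand: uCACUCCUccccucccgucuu
Each of these 4 seeds was held by 1 of the 1738 mature microRNAs of the RefSeq table, its own. The microRNAs themselves were not measured.

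Igf2 has 4 promoters in the RefSeq table, each given as 250 bases before to 50 bases after a transcription start. The one richest and the one poorest in CpG, the dinucleotide that Dnmt1 methylates, are shown with each CpG in capitals, because they differ in how much of that substrate they hold.
Igf2 promoter, chr7:142658755-142659054, minus strand: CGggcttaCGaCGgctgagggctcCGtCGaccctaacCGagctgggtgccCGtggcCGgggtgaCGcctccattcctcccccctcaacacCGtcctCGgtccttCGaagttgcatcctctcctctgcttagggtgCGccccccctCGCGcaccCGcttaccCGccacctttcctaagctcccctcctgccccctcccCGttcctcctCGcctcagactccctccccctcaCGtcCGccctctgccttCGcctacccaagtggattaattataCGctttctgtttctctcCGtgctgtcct
Igf2 promoter, chr7:142666767-142667066, minus strand: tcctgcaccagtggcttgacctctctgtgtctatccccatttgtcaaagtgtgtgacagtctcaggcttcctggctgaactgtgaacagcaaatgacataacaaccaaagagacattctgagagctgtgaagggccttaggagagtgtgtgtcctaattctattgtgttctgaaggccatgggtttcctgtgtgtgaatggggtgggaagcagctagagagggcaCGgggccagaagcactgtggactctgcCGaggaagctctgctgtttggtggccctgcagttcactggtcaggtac
The first held 24 CpG, more than 80.02% of the 32851 promoters in the table. The second held 2 CpG, more than 14.1% of them, and lies within Igf2os. The other two held 14 and 7 CpG, beside a median of 7 over all promoters of this length.

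Each library held 1141414 to 17653087 allele-assigned reads. H19 received 322553 reads in all and had at least 10 reads in 72 of 72 libraries. Igf2 received 2228 reads, with at least 10 in 42 libraries, and Igf2os 850 reads, with at least 10 in 30. Levels are given as CPM, the usual depth-scaled unit, computed over the allele-assigned reads of the library, and a parental share is given for libraries with at least 10 reads of the gene. The targeted gene was below every wild-type BDF1xCAST library in 9 of 9 Eed epiblast libraries and 10 of 10 Eed ExE libraries, and in 3 of 3 Dnmt1 epiblast libraries and 2 of 3 Dnmt1 ExE libraries. Rnf2 was below them in 4 of 6 epiblast libraries and in 0 of 5 ExE libraries of the Rnf2 group. In the G9a-Glp group, Ehmt1 was below them in 2 of 6 epiblast and 5 of 8 ExE libraries, and Ehmt2 in 0 of 6 and 6 of 8. Epiblast library 7 of that group had 50.45 CPM of Ehmt1, above the wild-type maximum of 39.83 CPM. In the Eed group, the embryo labels and the title numbers disagree on which epiblast and ExE libraries belong together for embryos 7 to 10, and the embryo labels are used as names here. An edited gene can still give reads, so RNA from the targeted gene is a partial check of the labels. The libraries of a group are separate embryos by their labels, and p-values measure the spread between them. Fewer cells of a type and less RNA per cell cannot be told apart in these bulk tissues.

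H19 was far higher in ExE than in the epiblast of wild-type embryos. In the 7 BDF1xCAST epiblast libraries, H19 ran from 16.0 CPM through a median of 27.2 to 80.04 CPM. In the ExE of the same embryos it ran from 1049 through a median of 1338 to 2144 CPM. The ranges did not overlap. In CASTxBDF1 embryos 1 to 4, the epiblast held 36.7, 600.5, 60.3 and 55.4 CPM and the ExE 2214, 1480, 1769 and 1284 CPM. Epiblast library 2 of that cross lay far above its group, and it also had 3024 CPM of summed visceral endoderm markers. Over both crosses, H19 was 25.3-fold higher in ExE (log2 change 4.66 ± 0.52, SE, adjusted p = 8.61e-08, edgeR quasi-likelihood test with Benjamini-Hochberg adjustment and cross as a covariate). In that comparison 67.8% of all genes tested were called. Without epiblast library 2 of CASTxBDF1 the log2 change was 5.44.

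**Figure D1:**
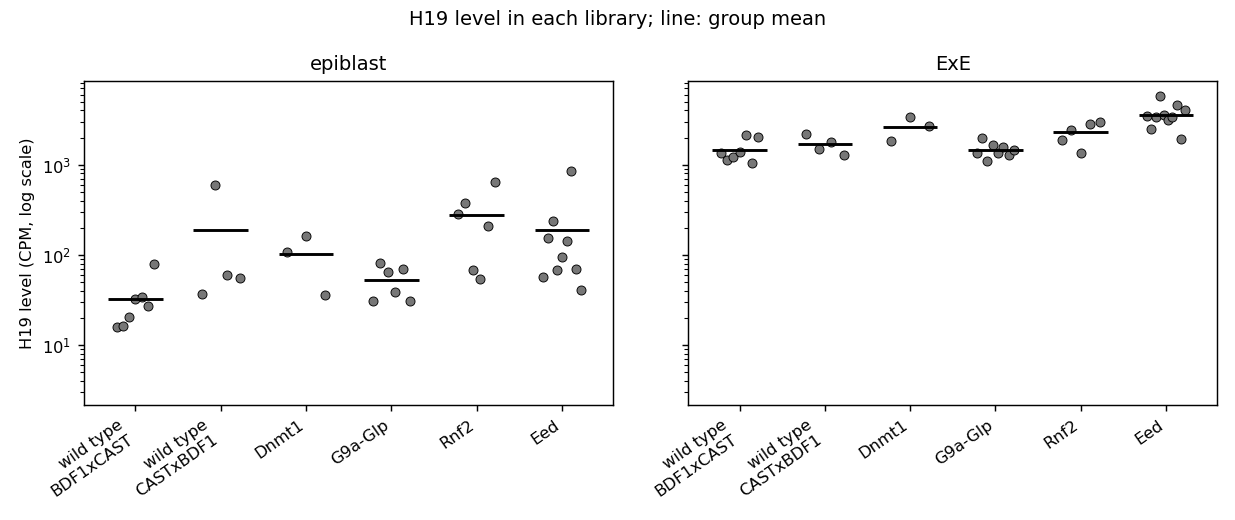
H19 level in each library (points, CPM on a log axis) in the 12 groups, epiblast on the left and ExE on the right, with the group mean as a line. Wild-type BDF1xCAST epiblast libraries sit between 16.0 and 80.04 CPM, and the Eed ExE libraries reach 5816 CPM.

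The allele that gave H19 was the maternal one in both crosses. In BDF1xCAST epiblast the maternal share ran from 75.5% through 80.3% to 96.6% of H19 reads, with a mean of 82.0% ± 7.26 (SD, n = 7). In CASTxBDF1 epiblast it was 90.9%, 98.0%, 94.6% and 87.6%. The BDF1 allele was thus the majority when it came from the mother, and the CAST allele was the majority when it did. Fitted over both crosses, the log2 ratio of maternal to paternal H19 reads was 3.49 ± 0.22 in epiblast (adjusted p = 1.1e-09, edgeR), where 0.342% of genes were called in either direction. In ExE it was 7.62 ± 0.61 (adjusted p = 9.83e-05, edgeR), where 1.02% were called. Without library 2 of CASTxBDF1 of the same tissue, these ratios were 2.82 and 10.91.

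By share of reads, the paternal H19 allele was almost silent in wild-type ExE but gave a measurable part of the few H19 reads in epiblast. In 5 of 7 BDF1xCAST ExE libraries H19 was listed as 100.0% maternal over 3126 to 6429 reads. The listed value is rounded, so each of these may hold a paternal share of up to 0.5%. Embryos 4 and 8 were the exceptions, with paternal shares of 5.00% and 3.01%. In CASTxBDF1 ExE, 3 of 4 libraries were listed as 100.0% maternal and embryo 2 had 0.9985% paternal reads. The paternal share in the epiblast of BDF1xCAST embryos ran from 3.45% (3 of 87 reads, embryo 6, exact binomial upper limit 9.75%) to 24.5% (12 of 49 reads, embryos 2 and 3, upper limit 38.9%). Such intervals cover counting error only, since reads without molecular identifiers are not independent molecules. Within an embryo, the paternal share was lower in ExE than in epiblast in 11 of 11 wild-type embryos, by a mean of 13.3 percentage points (SD 8.12, exact two-sided sign-flip test, p = 0.000977, the smallest that 11 embryos allow). In the edgeR fit over all autosomal genes tested, the tissue difference of the H19 ratio was 4.12 ± 1.33 on the log2 scale and did not pass (adjusted p = 0.556, 0.304% of genes called). With each rounded value set 0.5 percentage points toward the paternal allele, it was 3.10 ± 0.85 (adjusted p = 0.354, edgeR). The log2 ratio in wild-type ExE was then 6.52 instead of 7.62. In absolute terms the paternal allele stood at 5.28 ± 3.46 CPM in BDF1xCAST epiblast (SD, n = 7) and at 18.5 ± 31.7 CPM in ExE, where 5 of 7 libraries were listed at 0 after rounding. The contrast between the tissues thus holds for the share and not for the level of the paternal allele.

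Igf2 and Igf2os were almost confined to ExE by read number, and both leaned to the paternal allele there. Igf2 had 2077 reads over the 37 ExE libraries of all groups and 151 over the 35 epiblast libraries. In wild-type BDF1xCAST epiblast it had 5 reads in 7 libraries, with 4 libraries at 0. In ExE of the same embryos Igf2 ran from 4.94 through 9.62 to 35.7 CPM, with embryo 6 far above the others. Over both wild-type crosses Igf2 was 25.5-fold higher in ExE (log2 change 4.67 ± 0.48, adjusted p = 4.67e-11, edgeR) and Igf2os 37.4-fold higher (5.22 ± 0.69, adjusted p = 7.85e-07, edgeR). Between these tissues 67.8% of all genes tested were called. Since few epiblast reads lie behind these folds, their size depends on the low counts, and without epiblast library 2 of CASTxBDF1 the Igf2 log2 change was 5.80.

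Paternal expression of Igf2 was partial. In BDF1xCAST ExE the maternal share of Igf2 reads ran from 3.70% through 31.8% to 46.7%, with a mean of 30.0% ± 13.3 (SD, n = 7) over 15 to 107 reads a library. In CASTxBDF1 embryos 1 to 4 it was 11.7%, 9.72%, 11.6% and 15.3%. The paternal allele held the majority in 11 of 11 wild-type ExE libraries. The log2 ratio of maternal to paternal reads was -2.07 ± 0.20 for Igf2 (adjusted p = 7.98e-08, edgeR) and -1.89 ± 0.35 for Igf2os (adjusted p = 0.00131, edgeR). The maternal share of Igf2 was lower in CASTxBDF1 than in BDF1xCAST by 17.9 percentage points, and this did not pass (exact two-sided permutation test, p = 0.0303, adjusted p = 0.152 over 5 comparisons). Igf2os had 4 BDF1xCAST ExE libraries with at least 10 reads, with maternal shares of 27.3%, 31.3%, 23.5% and 26.7%. In the 28 ExE libraries with at least 10 reads of each gene, Pearson's r between the maternal shares of Igf2 and Igf2os was 0.692, over libraries that also share unassignable reads of the overlap.

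Loss of Dnmt1 went with an H19 signal from both parents. In the 3 Dnmt1 ExE libraries the paternal share of H19 was 45.5%, 45.7% and 44.3%, over 3588, 5755 and 6230 reads, whereas the highest wild-type BDF1xCAST ExE library had 5.00%. The groups did not overlap, and the maternal share of the 3 knockout libraries had an SD of 0.777 percentage points. The log2 ratio of maternal to paternal reads fell by 6.16 ± 0.88 (adjusted p = 0.0197, edgeR, 0.986% of genes called). Leaving out any 1 of the 3 Dnmt1 libraries ended this call at nearly the same size (log2 differences of -6.15, -6.15 and -6.20, adjusted p of 0.0889 to 0.115, edgeR). In embryo 1, which is among these libraries, the ExE held 47.9 CPM of Dnmt1, above the wild-type median of 47.4 CPM, beside an H19 paternal share like that of the other two embryos. In epiblast the paternal share was 56.5%, 40.8% and 28.3%, above the wild-type maximum of 24.5% in 3 of 3 libraries. There the log2 ratio fell by 2.10 ± 0.38 (adjusted p = 0.00167, edgeR, 1.03% of genes called). Without epiblast library 1 the difference was -1.58 and was no longer called (adjusted p = 0.123, edgeR). That library had 270.1 CPM of visceral endoderm markers. Without all epiblast libraries over 80 CPM of these markers, wild-type ones included, the difference was -1.14 (adjusted p = 0.353, edgeR). This fit left out Dnmt1 library 1 and wild-type libraries 4, 6 and 8, so the part of the markers cannot be told from that of library 1.

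In the ExE of the Dnmt1 knockout, mean paternal H19 was 1167 CPM above wild type and mean maternal H19 differed by -7.91 CPM. Paternal H19 in ExE was 833, 1537 and 1186 CPM in embryos 1 to 3, and the highest wild-type BDF1xCAST library had 68.9 CPM. Maternal H19 was 996, 1828 and 1494 CPM. The first lay below the wild-type range of 1049 to 2144 CPM and the others lay within it. The paternal allele rose by 5.73 ± 1.31 on the log2 scale (adjusted p = 0.0196, edgeR, 17.4% of genes called), which was lost without library 2 or library 3 (adjusted p of up to 0.0716, edgeR). The maternal allele differed by -0.28 ± 0.26 and did not pass (adjusted p = 0.509, edgeR, 16.9% of genes called). Because 5 of 7 wild-type libraries were listed at 0 paternal reads, the fold of the paternal allele depends on how such zeros are treated. Summed markers of ectoplacental cone and giant cells were 804.5 to 1187 CPM in Dnmt1 ExE against 304 to 764 CPM in wild type, with Prl3d1, Ctsq, Tpbpa and Gcm1 at 0, and their part in the result was not tested. Total H19 in ExE was 1828, 3365 and 2680 CPM and was not called (log2 change 0.57 ± 0.25, adjusted p = 0.122, edgeR, 19.1% of genes called). In the epiblast total H19 was 108.8, 161.2 and 35.6 CPM (log2 change 1.51 ± 0.42, adjusted p = 0.0273, edgeR, 15.1% of genes called), and the paternal allele rose by 3.00 ± 0.47 (adjusted p = 0.000776, edgeR, 13.6% of genes called). Maternal H19 there differed by 0.89 ± 0.45 and did not pass (adjusted p = 0.22, edgeR, 14.2% of genes called). In mean CPM, the epiblast gain was 40.45 paternal and 28.95 maternal. Summed ExE markers in these 3 epiblast libraries were 260.7, 247.9 and 94.61 CPM, with Cdx2 and Wnt7b at 0, against 29.1 to 234 CPM in wild type, so the libraries highest in H19 also lay above the wild-type maximum of these markers. The part of such cells in the result was not tested. The call on the total was lost without Dnmt1 embryo 1 or 2 or without wild-type embryo 1, 3 or 7 (log2 changes of 1.04 to 1.48).

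**Figure D2:**
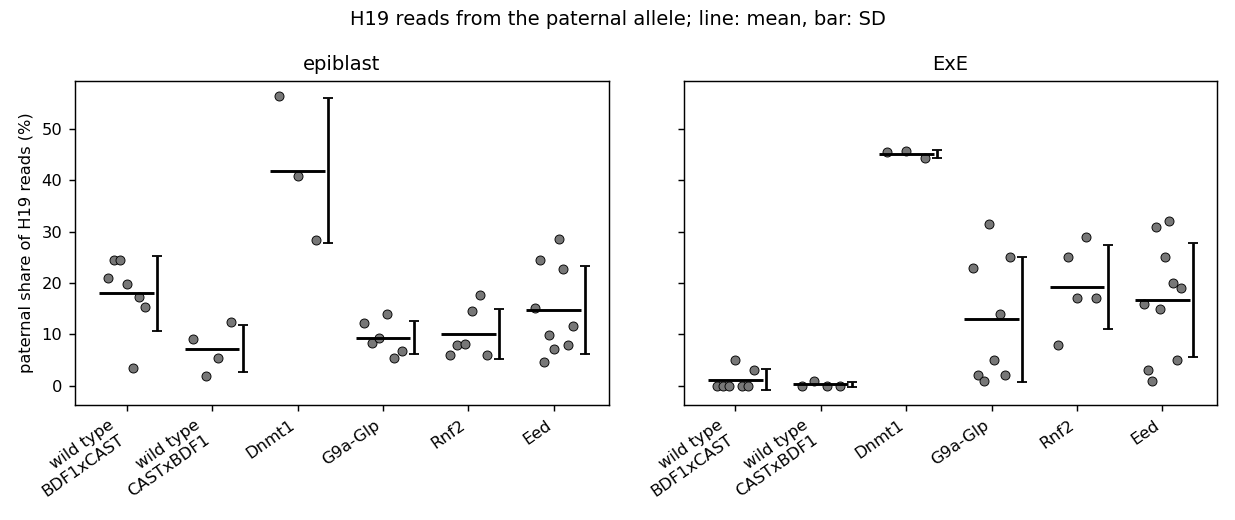
Share of H19 reads from the paternal allele (%) in each library (points), with the group mean as a line and the SD as a bar beside it, for epiblast (left) and ExE (right). The 3 Dnmt1 ExE libraries sit between 44.3% and 45.7%, while the other knockout ExE groups spread from 0.995% to 32.0%.

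In the histone methylation and Polycomb knockouts, the paternal H19 share in ExE varied from embryo to embryo. In the 8 G9a-Glp ExE libraries it ran from 0.995% through 9.49% to 31.4%, and 4 of 8 lay above the wild-type maximum. The other 4 lay within the wild-type range, at 4.99% or less. The change in the ratio was -3.44 ± 1.15 (log2) and did not pass in edgeR (adjusted p = 0.257, 1.25% of genes called). In Rnf2 ExE the paternal share was 8.00%, 25.0%, 17.1%, 29.0% and 17.0% in embryos 2, 4, 5, 6 and 7, above the wild-type maximum in 5 of 5. The ratio changed by -4.35 ± 0.90 and narrowly missed the threshold (adjusted p = 0.0523, edgeR, 1.2% of genes called). It was called without Rnf2 embryo 2 (log2 -4.68) or without wild-type embryo 4 (-5.26). Visceral endoderm markers summed to 20.32 to 145.1 CPM in G9a-Glp ExE and 23.19 to 50.58 CPM in Rnf2 ExE, against 12.84 to 29.66 CPM in wild type. Fgb and Cldn2 were at 0 in each group. Cone and giant cell markers summed to 316 to 1082 CPM and 427.6 to 1265 CPM, against 304 to 764 CPM, with Prl3d1 and Ctsq at 0 in each. All these ranges overlapped wild type. The part of such cells in the result was not tested.

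Eed ExE libraries ranged from nearly maternal H19 to a mixture of both alleles. The paternal share ran from 0.9985% through 17.5% to 32.0%, above the wild-type maximum in 7 of 10 libraries. The ratio fell by 3.98 ± 1.02 (log2, adjusted p = 0.0472, edgeR, 2.98% of genes called). This call was lost in 13 of 17 fits that left out 1 library, with log2 differences from -4.89 to -3.65 and adjusted p of up to 0.0927 (edgeR). It was kept without Eed embryo 2, 3 or 9 or wild-type embryo 4, the libraries that lay nearest the other group, and lost without any of the others. An exact two-sided permutation test of the mean paternal share per library, chosen after the data were seen, gave adjusted p = 0.0398 for Dnmt1, 0.0398 for G9a-Glp, 0.0126 for Rnf2 and 0.0126 for Eed in ExE, over 10 comparisons of H19. All these comparisons share the same 7 wild-type BDF1xCAST embryos.

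**Figure D3:**
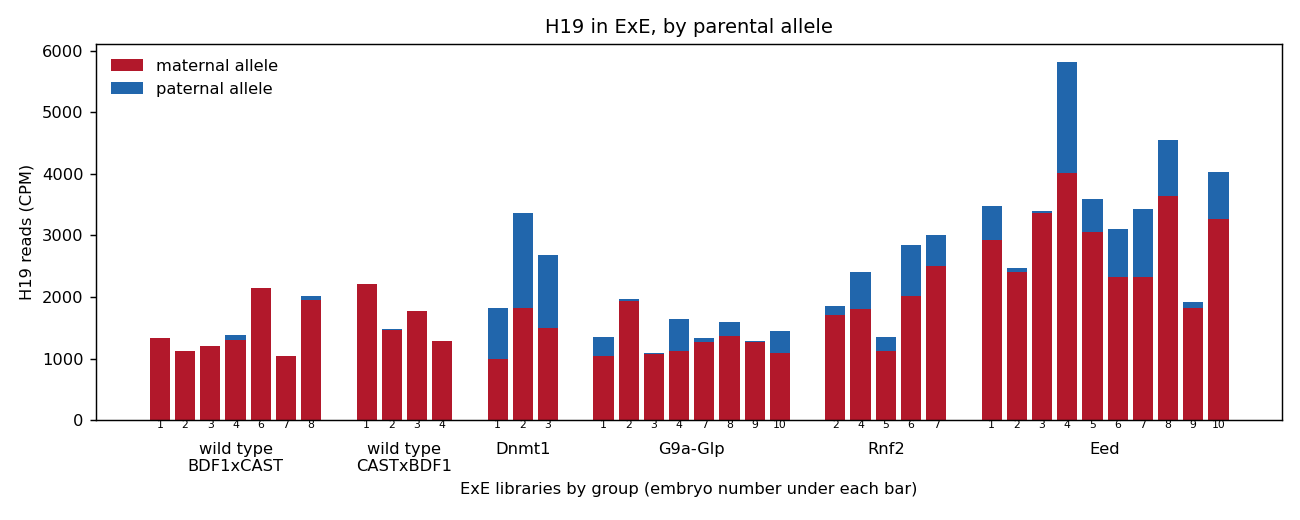
Maternal (red) and paternal (blue) H19 reads in CPM, stacked for each ExE library and ordered by group and embryo. Dnmt1 bars are nearly evenly divided, wild-type bars are almost all maternal, and Eed bars are tall through both alleles.

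Total H19 rose in Eed ExE through both alleles. It ran from 1921 through 3454 to 5816 CPM, and 9 of 10 libraries lay above the wild-type maximum of 2144 CPM. The log2 change was 1.12 ± 0.22, a 2.18-fold rise (adjusted p = 0.000296, edgeR), in a comparison where 41.6% of genes were called. The maternal allele rose by 0.84 ± 0.20 (adjusted p = 0.0026, edgeR, 29.8% of genes called) and the paternal allele by 5.01 ± 1.18 (adjusted p = 0.00495, edgeR, 30.5% of genes called). Without wild-type embryo 4 or 8, the ones with paternal reads, the paternal change was larger, at up to 5.84. In mean CPM, maternal H19 was higher by 1468 and paternal H19 by 647. Markers of other lineages moved beside it: the summed markers of ectoplacental cone and giant cells ran from 592 to 1544 CPM in Eed ExE and from 304 to 764 CPM in wild type, and those of ExE from 319 to 685 CPM against 610 to 1078 CPM. Of the 12 cone and giant cell markers 10 were in the table and 7 had reads in Eed ExE, with Prl3d1, Ctsq and Gcm1 at 0. Of the 10 ExE markers 9 were in the table, and each of the 9 had reads in both groups. Visceral endoderm markers summed to 39.0 to 81.72 CPM against 12.84 to 29.66 CPM in wild type, with Fgb and Cldn2 at 0 in both. Decidua and maternal blood markers summed to 11.29 to 50.8 CPM against 3.216 to 11.85 CPM, with Ptprc at 0 in Eed ExE. The part of these cells in the result was not tested.

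In Rnf2 and G9a-Glp ExE the total did not pass. Rnf2 ExE libraries held 1862, 2413, 1352, 2841 and 3012 CPM of H19 (log2 change 0.58 ± 0.22, adjusted p = 0.0631, edgeR, 25.1% of genes called). The paternal allele there rose by 4.58 ± 1.13 (adjusted p = 0.0182, edgeR, 19.1% of genes called), from a wild-type mean of 18.5 to 464 CPM, and the change was up to 5.44 without wild-type embryo 4 or 8. The maternal allele differed by 0.28 ± 0.21 (adjusted p = 0.381, edgeR, 17.7% of genes called). G9a-Glp ExE ran from 1087 through 1401 to 1975 CPM of H19, inside the wild-type range (log2 change -0.08 ± 0.17, adjusted p = 0.775, edgeR, 16.1% of genes called). Its paternal allele stood at 194.0 ± 187.9 CPM (SD, n = 8), a difference that did not pass (log2 3.31 ± 1.14, adjusted p = 0.0818, edgeR, 10.2% of genes called) and was up to 4.15 without wild-type embryo 4 or 8. In the total, RNA of the paternal allele thus came to 13.9% of pooled G9a-Glp ExE reads, 20.5% of Rnf2 reads, 19.3% of Eed reads and 45.1% of Dnmt1 reads, beside 1.2% in wild type.

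In the epiblast, H19 rose in the Polycomb knockouts from its low wild-type level. Rnf2 epiblast libraries ran from 54.4 through 247.1 to 651 CPM, with 4 of 6 above the wild-type maximum (log2 change 3.18 ± 0.55, 9.06-fold, adjusted p = 0.000485, edgeR, 32.6% of genes called). Eed epiblast libraries ran from 41.1 through 94.8 to 846 CPM, with 5 of 9 above it (2.51 ± 0.69, 5.68-fold, adjusted p = 0.00992, edgeR, 38% of genes called). No library of either group lay below the wild-type minimum. G9a-Glp epiblast ran from 30.9 through 52.0 to 81.2 CPM and was not called (0.70 ± 0.32, adjusted p = 0.0944, edgeR, 36.4% of genes called).

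Both alleles took part in the epiblast rise of the Rnf2 knockout. The maternal allele rose by 3.31 ± 0.61 (adjusted p = 0.00197, edgeR, 23.1% of genes called) and the paternal allele by 2.19 ± 0.52 (adjusted p = 0.0046, edgeR, 24.1% of genes called). In Eed epiblast the maternal allele rose by 2.47 ± 0.68 (adjusted p = 0.014, edgeR, 29.1% of genes called), and the paternal allele differed by 2.75 ± 1.01 without passing (adjusted p = 0.0572, edgeR, 27.8% of genes called). In G9a-Glp epiblast neither allele passed, with the maternal one at 0.82 ± 0.34 (adjusted p = 0.0791, edgeR, 27.9% of genes called) and the paternal one at -0.16 ± 0.38 (adjusted p = 0.788, edgeR, 28.2% of genes called). The maternal share of H19 in epiblast was 89.9% ± 4.91 in Rnf2 (SD, n = 6), 85.3% ± 8.59 in Eed (SD, n = 9) and 90.6% ± 3.23 in G9a-Glp (SD, n = 6), against 82.0% in wild type. None of these 3 was called by edgeR (adjusted p of 0.682, 0.998 and 0.213, with 0.827%, 1.23% and 2.04% of genes called). The permutation test of the H19 share passed for G9a-Glp epiblast, in the maternal direction (adjusted p = 0.0447, exact, two-sided), and not for Rnf2 (0.0626) or Eed (0.467). Visceral endoderm markers in G9a-Glp epiblast had a median of 120.9 CPM against 10.9 CPM in wild type, and without the libraries over 80 CPM of them the log2 difference of the ratio was 1.08 (adjusted p = 0.467, edgeR). The permutation test was not repeated without those libraries.

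Markers of other tissues moved with H19 in some epiblast libraries. Elf5, a transcription factor of ExE, was above 10 CPM in Rnf2 epiblast libraries 1, 2 and 8, Eed epiblast library 8 and CASTxBDF1 epiblast library 2, which are the 5 epiblast libraries highest in H19 (286 to 846 CPM). Summed over the ExE marker list, of which 9 of 10 were in the table, the range was 25.2 to 170.7 CPM in Rnf2 epiblast, 27.4 to 109.9 CPM in Eed epiblast and 29.1 to 234 CPM in wild-type BDF1xCAST epiblast, with Cdx2 at 0 in the last. Visceral endoderm markers, of which 13 of 15 were in the table and Fgb was at 0 in all 3 groups, summed to 17.3 to 126.9 CPM in Rnf2, 25.3 to 68.0 CPM in Eed and 6.29 to 617 CPM in wild type. Decidua and maternal blood markers, with 8 of 11 in the table, summed to 13.43 to 29.4 CPM in Rnf2 epiblast, with Prl8a2, Hbb-bt and C1qa at 0. They summed to 6.05 to 16.76 CPM in Eed epiblast and to 1.815 to 8.385 CPM in wild type, so Rnf2 did not overlap wild type. Only 1 of the 11 had enough reads to be tested in Rnf2 epiblast. It rose (log2 2.99), beside 19% of all genes, so the sum may rest on few genes. How many of all genes did not overlap was not counted. Cone and giant cell markers summed to 44.96 to 166.5 CPM in Rnf2, 30.0 to 115.5 CPM in Eed and 18.45 to 87.66 CPM in wild type. The part of decidual, blood and cone cells in the H19 change was not tested. Without the libraries over 10 CPM of Elf5, H19 was still called, at 1.79 ± 0.41 in Rnf2 (adjusted p = 0.00769, edgeR) and 1.63 ± 0.38 in Eed (adjusted p = 0.00244, edgeR). The only Eed library this left out was library 8. Both changes are more than 1.5 times smaller on the log2 scale than over all libraries. The knockout libraries left out were those highest in H19, and no wild-type BDF1xCAST library was left out. A smaller change was thus fixed in advance, and the part of ExE cells was not tested. Without the libraries over 80 CPM of visceral endoderm markers the changes in total H19 were 3.79 ± 1.08 (adjusted p = 0.0384, edgeR) and 3.11 ± 1.01 (adjusted p = 0.0375, edgeR), with the paternal allele of Rnf2 no longer called (2.13, adjusted p = 0.138, edgeR).

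**Figure D4:**
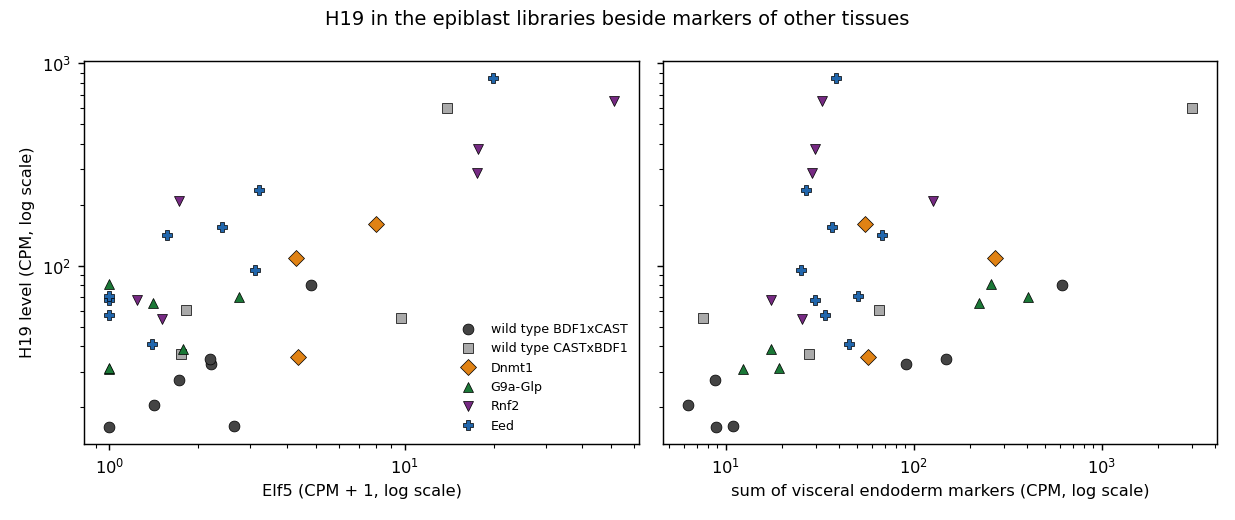
H19 level (CPM, log axis) in each epiblast library against Elf5 (CPM + 1, log axis, left) and against the sum of visceral endoderm markers (CPM, log axis, right), with a symbol for each group. The libraries with the most Elf5 lie high in H19, while other Rnf2, Eed and Dnmt1 libraries with less Elf5 also lie above most wild-type libraries.

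The change of H19 differed between the tissues in 1 of the 4 knockouts. For total H19 the Rnf2 change in ExE minus that in epiblast was -2.61 ± 0.64 on the log2 scale (adjusted p = 0.0115, edgeR interaction, 6.5% of genes called), with the larger rise in epiblast. This difference was not refitted without the epiblast libraries high in Elf5. The same difference was -1.38 ± 0.65 for Eed (adjusted p = 0.156), -0.74 ± 0.35 for G9a-Glp (adjusted p = 0.187) and -0.94 ± 0.53 for Dnmt1 (adjusted p = 0.626), all from edgeR, with 15.2%, 6.87% and 0.396% of genes called. For the maternal share of H19 no interaction passed, with adjusted p of 0.448 for Rnf2, 0.641 for Eed, 0.713 for G9a-Glp and 0.96 for Dnmt1 (edgeR), and with 0.212%, 0.89%, 0.454% and 0% of genes called.

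Igf2 rose in Eed ExE. Its 10 libraries ran from 12.8 through 27.0 to 38.7 CPM, with 2 of 10 above the wild-type maximum of 35.7 CPM, so the groups overlapped. The log2 change was 0.93 ± 0.32 (1.90-fold, adjusted p = 0.025, edgeR, 41.6% of genes called). By allele, paternal Igf2 rose by 0.99 ± 0.33 (adjusted p = 0.0225, edgeR, 30.5% of genes called). Maternal Igf2 differed by 0.74 ± 0.38 without passing (adjusted p = 0.142, edgeR, 29.8% of genes called). The maternal share in Eed ExE was 26.8% ± 6.74 (SD, n = 10), inside the wild-type range, and was not called (adjusted p = 0.834, edgeR). The calls on total and paternal Igf2 were lost when wild-type embryo 2, 3, 4 or 7 was left out (adjusted p of up to 0.0635 and 0.0598, edgeR). Without wild-type embryo 6, the one high in Igf2, they were 1.50 and 1.54 on the log2 scale. The exact permutation test on Igf2 CPM did not pass for Eed (p = 0.0154, adjusted p = 0.154 over 10 comparisons).

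In the other knockouts Igf2 in ExE was not called. Dnmt1 ExE libraries held 12.2, 8.19 and 9.89 CPM. Their maternal shares of Igf2 were 50.0%, 28.6% and 82.6% over 24, 14 and 23 reads, and in 2 of 3 libraries the paternal share was below every wild-type library. With 3 libraries that far apart, the change in the ratio did not pass (log2 1.63 ± 0.63, adjusted p = 0.371, edgeR). Without 1 library it ranged from 0.75, without Dnmt1 library 3, to 2.16. G9a-Glp ExE ran from 4.10 through 8.52 to 17.5 CPM of Igf2 with a maternal share of 20.4% ± 10.4 (SD, n = 8), and Rnf2 ExE held 11.1, 15.5, 4.33, 14.6 and 12.2 CPM with a maternal share of 34.6% ± 9.18 (SD, n = 4). Neither total (adjusted p of 0.458 and 0.988, edgeR) nor share (0.739 and 0.803, edgeR) passed.

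**Figure D5:**
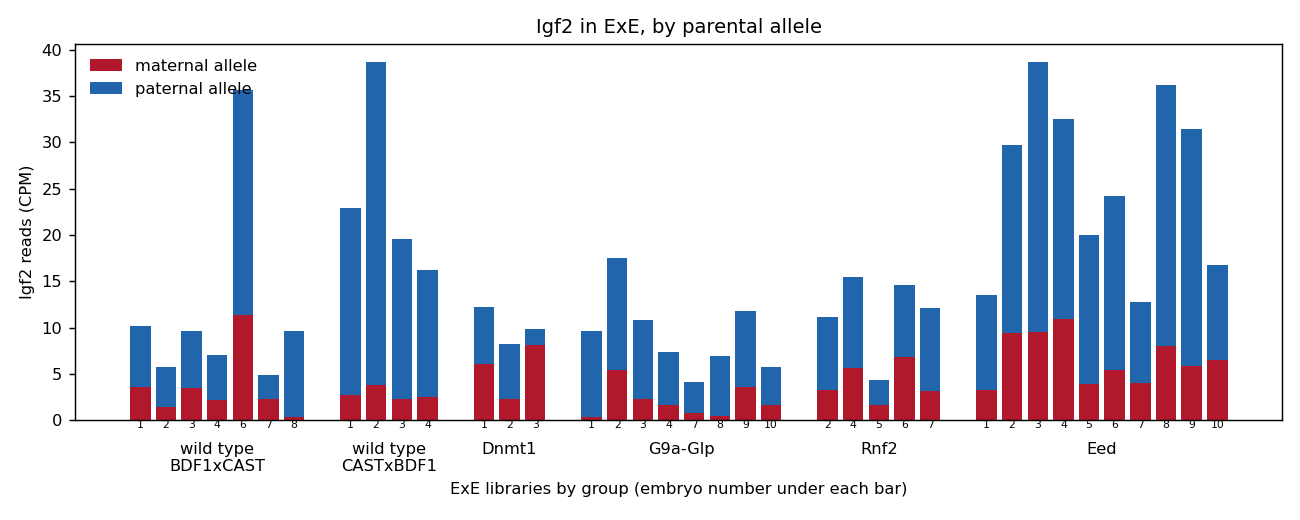
Maternal (red) and paternal (blue) Igf2 reads in CPM, stacked for each ExE library and ordered by group and embryo. The paternal part is the larger one in all wild-type bars, and Dnmt1 embryo 3 is mostly maternal.

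Igf2os followed with fewer reads. In Eed ExE it ran from 2.18 through 9.05 to 12.5 CPM, with 6 of 10 libraries above the wild-type maximum of 6.33 CPM. Total Igf2os rose by 0.94 ± 0.31 (adjusted p = 0.0181, edgeR, 41.6% of genes called) and its paternal allele by 1.03 ± 0.32 (adjusted p = 0.0157, edgeR, 30.5% of genes called). Its maternal allele differed by 0.66 ± 0.45 (adjusted p = 0.276, edgeR, 29.8% of genes called). Igf2os was not called in Rnf2 ExE (log2 change 0.77 ± 0.30, adjusted p = 0.0738, edgeR), G9a-Glp ExE (0.23, adjusted p = 0.695) or Dnmt1 ExE (0.39, adjusted p = 0.598). Reads of Igf2os came to 38.2% of those of Igf2 in ExE. In 5 of the 47 libraries with reads of both it had more reads than Igf2.

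In the epiblast, Igf2 stayed near its detection limit. Dnmt1 epiblast had 0 Igf2 reads in 3 of 3 libraries, and G9a-Glp had 6 reads over 6 libraries. Reads were found in 6 of 6 Rnf2 libraries, at 1.19, 1.33, 0.491, 1.01, 3.06 and 4.40 CPM in embryos 1, 2, 3, 5, 6 and 8, and in 7 of 9 Eed libraries, at up to 3.58 CPM. No epiblast difference in Igf2 CPM passed (exact two-sided permutation tests, lowest p = 0.042 for Rnf2, adjusted p = 0.21). The Rnf2 epiblast libraries were deeper (5549733 to 17653087 reads) than those of any other epiblast group (up to 3500256), so the number of libraries with a read is not comparable between groups. Pooled over the 94 Rnf2 epiblast reads, 38.3% were maternal (exact binomial 95% interval 28.5% to 48.9%).

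H19 and Igf2 levels were compared across embryos within the 7 groups of at least 6 libraries, on log2(CPM + 1). In Eed epiblast, Pearson's r was 0.794 (permutation p = 0.006, adjusted p = 0.042 over 7 groups) and Spearman's rho 0.862 (permutation p = 0.00524), and r was 0.656 without the 2 libraries farthest from the median of H19. In wild-type BDF1xCAST ExE r was 0.794 (permutation p = 0.0179, adjusted p = 0.0625) and rho 0.821 (permutation p = 0.0341), with r of 0.711 without the 2 farthest. In wild-type BDF1xCAST epiblast r was 0.902 (permutation p = 0.0286, adjusted p = 0.0667) and rho 0.808 (permutation p = 0.0381), with r of 0.565 without the 2 farthest and 4 of 7 libraries at 0 for Igf2. In Rnf2 epiblast r was 0.722 (permutation p = 0.0972, adjusted p = 0.17) and rho 0.771 (permutation p = 0.103), with r of 0.401 without the 2 farthest. Only the Eed epiblast relation passed the adjustment. In that group Igf2 was near its detection limit, with 2 of 9 libraries at 0. The group also includes Eed epiblast library 8, with 846.1 CPM of H19 and 18.88 CPM of Elf5. The part of ExE cells in this relation was not tested. No relation was found in G9a-Glp epiblast (r = 0.324, rho = 0.27, permutation p = 0.667 for both), G9a-Glp ExE (r = 0.233, rho = 0.024, permutation p = 0.592 and 0.977) or Eed ExE (r = -0.026, rho = 0.018, permutation p = 0.955 and 0.969), where r without the 2 farthest was 0.531, -0.203 and -0.052.

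Among the 15 other genes of the table within 250 kb, Ctsd, the lysosomal protease cathepsin D, was the one called most often. Ctsd rose in ExE of all 4 knockouts, by 0.85 ± 0.17 in Dnmt1, 0.96 ± 0.14 in G9a-Glp, 0.63 ± 0.14 in Rnf2 and 0.98 ± 0.23 in Eed on the log2 scale, and in epiblast of all but Dnmt1, by 0.68, 0.83 and 0.40 (adjusted p of 5.89e-05 to 0.0223, edgeR). Among all genes tested, 19.1%, 16.1%, 25.1% and 41.6% were called in ExE of Dnmt1, G9a-Glp, Rnf2 and Eed. In epiblast 36.4%, 32.6% and 38% were called in G9a-Glp, Rnf2 and Eed. Of the 15 neighbours, from 2 (Eed epiblast) to 6 (Eed and Dnmt1 ExE) had enough reads to be tested in a knockout comparison. These comparisons share their wild-type embryos. Ctsd was read from both alleles, with 59.3% ± 6.59 maternal in BDF1xCAST ExE (SD, n = 7) and 46.2% ± 4.42 in CASTxBDF1 ExE (SD, n = 4).

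In Eed ExE, Tnni2, a fast skeletal troponin, rose by 2.27 ± 0.48 (adjusted p = 0.000604, edgeR), and Ifitm10 had 229 reads in 10 libraries and 0 in the 7 wild-type BDF1xCAST ones (adjusted p = 0.000649, edgeR). Tnnt3, another fast skeletal troponin, rose in G9a-Glp ExE by 0.75 ± 0.23 (adjusted p = 0.0302, edgeR). Gm39117 fell by 3.35 ± 0.89 in Dnmt1 epiblast (adjusted p = 0.0192, edgeR). Of all genes tested, 41.6% were called in Eed ExE, 16.1% in G9a-Glp ExE and 15.1% in Dnmt1 epiblast. Gm33148, a noncoding gene between H19 and Igf2 at chr7:142591659-142620811, was called in no knockout. Its maternal share in BDF1xCAST ExE ran from 8.33% to 54.5% and in BDF1xCAST epiblast from 8 of 10 to 11 of 11 reads over the libraries with at least 10 reads.

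Among the receptors of the pathway, Igf1r, the signalling receptor of Igf2, fell in Rnf2 ExE (-1.18 ± 0.27), Rnf2 epiblast (-0.85 ± 0.21) and Eed epiblast (-0.62 ± 0.17), with adjusted p of 0.00474, 0.00569 and 0.0063 (edgeR). Igf2r, which clears Igf2, rose in Eed ExE by 1.46 ± 0.49 (adjusted p = 0.0191, edgeR). Over all genes tested, 23.2% rose and 18.5% fell in Eed ExE, 13.7% and 11.4% in Rnf2 ExE, 19% and 13.6% in Rnf2 epiblast, and 9.23% and 9.87% in Dnmt1 ExE, which is the background for the counts that follow. Of the 12 genes for binding proteins and their regulators, 4 were tested in Eed ExE and 2 rose, Igfbp2 (2.05 ± 0.28) and Igfbp3 (0.74 ± 0.28), and the median log2 change of the 4 was 0.63 beside 0.02 over all genes tested. Igfbp2 also rose in Rnf2 ExE, by 1.56 ± 0.29. In Eed epiblast 2 of 4 tested rose as well, with a median of 0.64 beside -0.02 over all genes tested (38% of genes called in either direction). None of the tested binding proteins was called in Dnmt1 or G9a-Glp.

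A further list held proteins that bind Igf2 mRNA and their regulators. Of 6 tested, 3 fell and 1 rose in Eed ExE (median -0.35), 2 fell and 1 rose in Rnf2 ExE (-0.23), and 3 fell and 1 rose in Rnf2 epiblast (-0.43). In Eed epiblast and in G9a-Glp epiblast 2 fell and 1 rose, where 38% and 36.4% of all genes were called. None was called in G9a-Glp ExE, and 1 was called in each Dnmt1 tissue. Igf2bp3, which binds Igf2 mRNA, fell in Eed ExE by 0.60 ± 0.14 and in Rnf2 ExE by 0.54 ± 0.15. Hmga2, an architectural chromatin protein, fell by 1.17 ± 0.22 in Eed ExE. Of 18 adaptors and kinases that act after the receptor, 14 were tested in Eed ExE, where 4 rose and 2 fell (median 0.03), among them the adaptor Grb14 (2.27 ± 0.46) and the kinase subunit Pik3r2 (1.01 ± 0.37), which rose. In Dnmt1 the imprinted adaptor Grb10 fell by 3.13 ± 0.41 in ExE and by 3.60 ± 0.40 in epiblast.

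Of 15 factors known to act at imprinting control regions, 13 were tested in Eed ExE, where 5 fell and 1 rose, and 12 in Rnf2 ExE, where 6 fell and none rose (edgeR). The medians were -0.38 and -0.56, beside 0.02 and -0.03 over all genes. In epiblast 4 of 13 fell and 2 rose in Rnf2 (32.6% of all genes called) and in Eed (38%), and 3 of 13 fell and 1 rose in G9a-Glp (36.4%). In G9a-Glp ExE 3 of 12 fell and 1 rose (16.1%). In Dnmt1 none of 12 was called in ExE (19.1%), and in epiblast 1 of 13 rose and none fell (15.1%). Dnmt3b, a de novo DNA methyltransferase, fell by 1.65 ± 0.20 in Eed ExE and fell by 1.205 ± 0.17 in Rnf2 ExE. Trim28, the corepressor recruited to imprints, fell by 1.00 ± 0.21 in Rnf2 ExE, and Dppa3, which protects maternal methylation in the zygote, rose by 4.07 ± 0.61 in Eed ExE. Of the 11 imprinted genes assigned to the network of H19, 9 were tested in Eed ExE, where 6 rose and 1 fell (median 0.86). They include Dlk1 (4.01 ± 0.54), Cdkn1c (2.86 ± 0.36) and Plagl1 (2.43 ± 0.47), which rose. The 1 that fell was Mest (-1.001 ± 0.22), named after its value was seen. In Rnf2 epiblast 5 of 9 rose and none fell, and in Dnmt1 ExE 1 rose (Meg3, 1.73 ± 0.39) and 2 fell of 6. In G9a-Glp ExE 3 rose and 1 fell of 6 (median 0.69, 16.1% of all genes called). In Rnf2 ExE 3 of 6 rose and none fell (25.1%). In epiblast 4 of 8 rose in Eed (38%) and 2 of 7 in G9a-Glp (36.4%), and none fell. In Dnmt1 epiblast 2 rose and 2 fell of 8 (15.1%).

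Over all 72 libraries, the levels most like those of H19 included Nid1 (r = 0.96), Sfmbt2 (0.954), Tinagl1 (0.951) and Gjb5 (0.949), as Pearson's r of log2(CPM + 1). For Igf2 the nearest was H19 itself (0.93), and others near it were B230206H07Rik (0.923), AU015836 (0.921) and Eps8l2 (0.921). These libraries come from tissues that differ in most genes, so such values describe the contrast of ExE with epiblast. For the maternal share of H19 over 37 ExE libraries, the highest r was with Meg3 (0.708), another maternally expressed noncoding RNA, and the lowest were with Mest (-0.822), Peg10 (-0.813) and Sgce (-0.811), 3 paternally expressed genes of chromosome 6. These libraries pool genotypes whose H19 shares differ, with a mean of 54.84% maternal in Dnmt1 ExE, so such values describe differences between genotypes as well as between embryos. For Igf2 over 36 ExE libraries the highest r was with Ubl3 (0.611) and the lowest with Ppp3r1 (-0.633).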

How the data were processed

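Sequenced reads came from 35 epiblast and 37 ExE libraries. One bisulfite sample of the series was not analysed here. The authors deposited, per the file headers, a count of reads over strain polymorphisms per gene, an allelic ratio (the CAST share minus 0.5, rounded to 2 decimals) and an allelic score (a signed -log10 binomial p, 0 under 10 reads). STAR 2.5.0, HTSeq and mm10 are named in the submitters' processing notes. Allele reads were recovered as the whole number that fits ratio and score, which matched the score within 0.002 for 99.991% of 712002 values. Where the score was at its limit (3647 values, 7.89% of reads, 35 of them H19) the rounded ratio set the reads, with an error of up to 0.5 percentage points.

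Counts were tested with edgeR 4.0.16 (R 4.3.3, quasi-likelihood, robust), with Benjamini-Hochberg adjustment and a threshold of 0.05. Totals used TMM and all genes that passed a filter on low counts. The parental ratio was the allele term within a library, without TMM. Single alleles took the TMM factors of the totals. Ratios and single alleles were tested, adjusted and counted over autosomal genes only. Knockouts were set against wild-type BDF1xCAST of the same tissue, parent of origin used both crosses, and tissues were compared over both crosses with cross as a covariate. Log2 changes are given with an SE, taken as the absolute log2 change over the square root of the F statistic. Ratios and single alleles needed 10 reads of the gene in at least 3 libraries a group. Alternatives used limma 3.58.1 and DESeq2 1.42.0. Added after the data were seen were other settings of the quasi-likelihood fit, the far end of the rounding, the permutation test of shares, and fits without libraries high in visceral endoderm markers, in Elf5 or in the targeted gene (the last replaced a hand-picked set). On simulated counts, 200 genes were changed 4-fold in Eed ExE against wild type. For totals 100% were recovered (10069 genes tested, 5.21% of calls false), and for the maternal share 99.5% (8959 genes, 3.4% false). Recovery at the read numbers and allelic shares of H19, Igf2 and Igf2os was not tested.

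The members and the gene lists were chosen with earlier results of these data known. Named genes were the members, all genes of the table within 250 kb, the targeted genes, the genes of highest likeness and up to 3 called genes per list. One gene of highest likeness is not reported here. Epiblast and ExE libraries of a number carry the same embryo label (correlations of deviations 0.02 to 0.47 in wild-type BDF1xCAST and -0.529 to 0.339 in Eed, whose title numbers disagree with the embryo labels for embryos 7 to 10), whereas knockout and wild-type embryos share only a number.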

Additional observations from a re-analysis of the deposited data

Results flagged for a closer look

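In 50 groups of values tested, 11 values, some from the same library, stood farther from the rest of their group than Dixon's criterion allows. Its chance rate of about 1 in 20 groups is for normally distributed values. Where all other values are at 0, any value above 0 stands out, so the rate does not hold there. For H19 CPM these were wild-type BDF1xCAST epiblast 8 (80.04, next 34.4), CASTxBDF1 epiblast 2 (600.5, next 60.3) and Eed epiblast 8 (846.1, next 237). For the paternal H19 share it was CASTxBDF1 ExE 2 (0.9985%, the other libraries listed at 0 after rounding).

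For Igf2 CPM these were wild-type BDF1xCAST epiblast 8 (2.287), CASTxBDF1 epiblast 2 (4.194), G9a-Glp epiblast 5 (1.748) and wild-type BDF1xCAST ExE 6 (35.68, next 10.2). For Igf2os CPM these were wild-type BDF1xCAST epiblast 8 (0.7623, next 0), CASTxBDF1 epiblast 3 (0.41, next 0) and Rnf2 epiblast 8 (3.835). Most of these epiblast values rest on few reads, 11 for Igf2 in CASTxBDF1 epiblast 2 and 27 for Igf2os in Rnf2 epiblast 8. Of the epiblast libraries high in H19 or Igf2, wild-type 8, CASTxBDF1 2 and G9a-Glp 5, also had 617, 3024 and 402.7 CPM of visceral endoderm markers. The part of those cells was not tested.

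The change of total H19 in the Rnf2 knockout differed between ExE and epiblast by -2.608 on the log2 scale (interaction term).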

How the results depend on the processing

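Of 555 values of 76 results under other settings, 504 kept their direction and their side of the threshold, and of 955 values with 1 library left out, 888 did. Where a call changed, the cause was not tested.

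Knockout and wild-type embryos share only a replicate number. With the replicate block, calls were lost for the H19 maternal share in Dnmt1 ExE (log2 -14.38, adjusted p = 0.514) and Dnmt1 epiblast (-1.28), the H19 parent-of-origin ratio in ExE (10.04), paternal H19 in Dnmt1 ExE (14.39) and Rnf2 ExE (5.24) and paternal Igf2os in Eed ExE (0.88). With it, calls were gained for H19 in G9a-Glp epiblast (maternal 0.97, total 0.81) and for paternal H19 in Eed epiblast (2.28) and G9a-Glp ExE (4.14), and Igf2 in Dnmt1 ExE changed sign (0.052).

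The H19 share in Dnmt1 ExE was not called with limma (-10.28) or without the library with Dnmt1 above the wild-type median (-6.15). In Dnmt1 epiblast the H19 share was not called with limma (-1.83), in 1 fit over all groups of the tissue (-2.12) or without libraries high in visceral endoderm markers (-1.14), and total H19 was not called in that 1 fit (1.54). The share in Eed ExE was not called with the trended dispersion (-4.18). Paternal H19 in Rnf2 epiblast was not called without the visceral endoderm libraries (2.13).

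Gained calls for the H19 share were in Rnf2 ExE in 1 fit over the tissue (-4.38), with at least 50 reads (-4.32), at the far end of the rounding (-3.84), without the robust spread (-4.35) and by permutation (-18.1 percentage points), in G9a-Glp ExE with no minimum of reads (-3.46), without the robust spread (-3.44) and by permutation (-11.8), in G9a-Glp epiblast by permutation (8.61), and between wild-type tissues with limma (8.07) or no minimum of reads (4.08). Paternal H19 was gained in Eed epiblast without TMM (2.91), without the robust spread (2.75) and with the trended dispersion (2.68), and in G9a-Glp ExE without the robust spread (3.31). Total H19 was gained without TMM in Dnmt1 ExE (0.84) and Rnf2 ExE (0.65), and in G9a-Glp epiblast with no filter (0.73) or without the visceral endoderm libraries (0.66, with maternal H19 at 0.84). Maternal H19 in Dnmt1 epiblast was gained without those libraries (1.66).

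Uncalled values that changed sign were the H19 share in Eed epiblast (limma 0.42, trended dispersion 0.23, permutation 3.31 percentage points, without high Elf5 0.27, without high visceral endoderm 0.40), Igf2 in Rnf2 ExE (DESeq2 -0.065, 1 fit -0.014, no filter -0.013, trended dispersion -0.032, without the library high in Rnf2 -0.073) and the Igf2os share in G9a-Glp ExE (limma 0.029).

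With 1 library left out, the H19 share ranged from -7.06 to -5.81 in Dnmt1 ExE, -2.31 to -1.58 in Dnmt1 epiblast, -4.89 to -3.65 in Eed ExE, -0.25 to 0.27 in Eed epiblast, 0.83 to 1.31 in G9a-Glp epiblast (called without wild-type 6) and -5.26 to -4.01 in Rnf2 ExE. Maternal H19 ranged from 0.31 to 1.21 in Dnmt1 epiblast and 0.64 to 1.12 in G9a-Glp epiblast, both called without wild-type 8. Paternal H19 ranged from 5.49 to 6.59 in Dnmt1 ExE, 1.44 to 3.00 in Eed epiblast (called without Eed 1, 5, 9 or 10) and -0.395 to 0.045 in G9a-Glp epiblast. Total H19 ranged from 0.36 to 0.76 in Dnmt1 ExE (called without wild-type 8), 1.04 to 1.89 in Dnmt1 epiblast, -0.15 to 0.06 in G9a-Glp ExE, 0.53 to 0.98 in G9a-Glp epiblast (called without wild-type 8) and 0.47 to 0.72 in Rnf2 ExE (called without Rnf2 5 or wild-type 6 or 8). Without Eed 8, H19 in Eed epiblast was 1.63 in total and 1.67 for the maternal allele. Igf2 in Eed ExE ranged from 0.78 to 1.50 in total, 0.82 to 1.54 for the paternal and 0.57 to 1.39 for the maternal allele, the last called without wild-type 6. Uncalled Igf2 in ExE ranged from -0.64 to 0.14 in Dnmt1, -0.59 to 0.14 in G9a-Glp and -0.13 to 0.60 in Rnf2, with the paternal allele from -0.46 to 0.26 in G9a-Glp and -0.26 to 0.47 in Rnf2, and Igf2os in Dnmt1 ExE from -0.17 to 0.63.

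Depth limits Igf2 and Igf2os most: few epiblast libraries reached 10 reads, and 3 Dnmt1 ExE libraries with 14 to 24 Igf2 reads leave their allelic shares wide.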
